A study of Mus musculus with 12 samples.

Results

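Mouse brain tumours labelled IDH1_R132H were compared with those labelled IDH1WT, gene by gene, in RNA sequenced from formalin-fixed, paraffin-embedded tissue. The comparison took every library of these 2 groups by the tumour genotype in the labels, 3 against 3, which is 6 of the 12 libraries of the series; the other 6 are from 3 tumours labelled PDGFA and 3 normal brains. It covered the 16842 genes with enough reads in the 6 libraries, of 49671 in the deposited count table. IDH1_R132H stands for isocitrate dehydrogenase 1 with the arginine-to-histidine change R132H, and IDH1WT for the wild-type enzyme. The mice of both groups carried N::TVA together with floxed alleles, among them Cdkn2a and Atrx, so those alleles are shared by the groups and are no part of the difference between them. TVA is a receptor of avian origin through which RCAS viruses can enter mouse cells. The normal brains came from mice without TVA. The promoter that drives TVA, the species of the delivered IDH1, and whether the IDH1 tumours also received PDGFA are not spelled out in the labels. Each sample carries its own number, but no label says that samples came from separate animals, so the p-values measure the spread between these libraries, part of which may be technical. The design text names the question as the glioma subtype of IDH1 mutant and wild-type tumours.

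IDH1 is a cytosolic enzyme that oxidises isocitrate to 2-oxoglutarate and makes NADPH. The R132H enzyme instead reduces 2-oxoglutarate to D-2-hydroxyglutarate, a metabolite known to inhibit dioxygenases that need 2-oxoglutarate, among them the TET enzymes that oxidise methylated cytosine and the lysine demethylases that act on histones. In human diffuse glioma the mutation is an early event, often found beside loss of ATRX, and such tumours are known for DNA hypermethylation and for a transcriptome of the proneural kind with features of oligodendrocyte precursors.

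The codon named by the mutation is shown because it is the only designed difference between the groups that the labels give. In the mouse gene it lies in exon 3 of 9 of transcript Idh1-201, on the minus strand of chromosome 1 in GRCm38 at 65170977 to 65170979, within a coding sequence of 414 codons. The stretch below covers codons 122 to 142 over 2 exons, from the GENCODE transcript, with the codon of R132H (CGA, arginine) in capitals.
Idh1 codons 122 to 142: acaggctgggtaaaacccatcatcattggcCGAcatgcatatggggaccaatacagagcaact
Counts per gene do not separate alleles, so the table cannot show which libraries carry the mutation. A delivered copy adds to the gene's count only as far as its reads match the mouse gene, and the labels give no more on this.

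Idh1 itself (ENSMUSG00000025950) was the first gene examined. Levels are given throughout as CPM, the count scaled to the size of its library after TMM correction. Idh1 stood at 52.7, 50.1 and 69.0 CPM in IDH1_R132H tumours 1 to 3 and at 46.6, 55 and 37.4 CPM in IDH1WT tumours 1 to 3. The ranges overlapped, because IDH1WT tumour 2 lay above IDH1_R132H tumours 1 and 2. The log2 difference, IDH1_R132H less IDH1WT, was 0.30 with a standard error (SE) of 0.20 and a 95% interval from -0.15 to 0.76, and it did not pass the test. All 6 values lay above the 3 normal brains, at 22.1, 23.3 and 26.3 CPM, and the PDGFA tumours stood at 21.7, 35.3 and 45.2 CPM. A gain of Idh1 RNA common to both groups would not show in this comparison.

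The alleles shared by the groups were measured next. Atrx, a chromatin remodeller, stood at 251, 258 and 258 CPM in IDH1_R132H tumours and at 253, 207 and 284 CPM in IDH1WT tumours, with a log2 difference of 0.04 (SE 0.19) and overlapping ranges. Its count covers the whole gene, so a deletion of some exons in part of the cells need not lower it. Cdkn2a, the gene of the p16 and p19 cell cycle inhibitors, had too few reads to test, with counts of 14, 1 and 5 in IDH1_R132H tumours and 8, 3 and 5 in IDH1WT tumours.

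Total counts were 6507923, 9132783 and 10019818 in IDH1_R132H tumours 1 to 3 and 14277395, 7023188 and 9886301 in IDH1WT tumours 1 to 3. IDH1_R132H tumour 3 stood apart: loci that resemble ribosomal RNA took 46.7% of its count and 8.11% to 13.9% of the others'. Gm42418 alone held 35.6%, and its log2 difference of 5.62 (SE 1.84) rests on that library, at 688800 CPM, since the other 5 ranged from 3998 to 5815 CPM. Its scaling factor was 0.518 against 1.08 to 1.21, and the first principal component, 43.4% of the variance, set it at 47.4 while the other 5 ranged from -23.1 to 12.5. Xist was high and Y-linked genes were at or near 0 in IDH1_R132H tumour 2 and IDH1WT tumour 1, with the reverse in the other 4, so each group had 1 library of that kind. The brain tumour label was checked against markers. The 20 markers of oligodendrocyte precursors summed to 3389 to 9544 CPM in the 6 tumours against 1057 to 1110 CPM in normal brain, and 24 mitosis genes summed to 262.3 to 902.5 CPM against 22.7 to 36.67 CPM. Neuronal markers were present in every tumour, at 7124 to 14370 CPM in sum against 14750 to 16210 CPM in normal brain, so the tissue held brain as well as tumour. In bulk tissue, fewer cells of a type and less RNA per cell cannot be told apart.

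Over all genes, tumours of different genotype were about as alike as tumours of the same genotype. The median absolute log2 difference between 2 libraries was 0.29 at the median of the 9 pairs across genotypes, 0.36 at the median of the 3 pairs within IDH1_R132H and 0.31 at the median of the 3 pairs within IDH1WT. The pair of IDH1_R132H tumours 1 and 2 was the closest at 0.199, followed by IDH1_R132H tumour 1 with IDH1WT tumour 2 at 0.227, a pair across genotypes. Pairs with IDH1_R132H tumour 3 reached 0.413 within its own group and 0.435 across. The ranges within and between the genotypes overlapped, as the plot of pairwise differences shows.

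**Figure D1:**
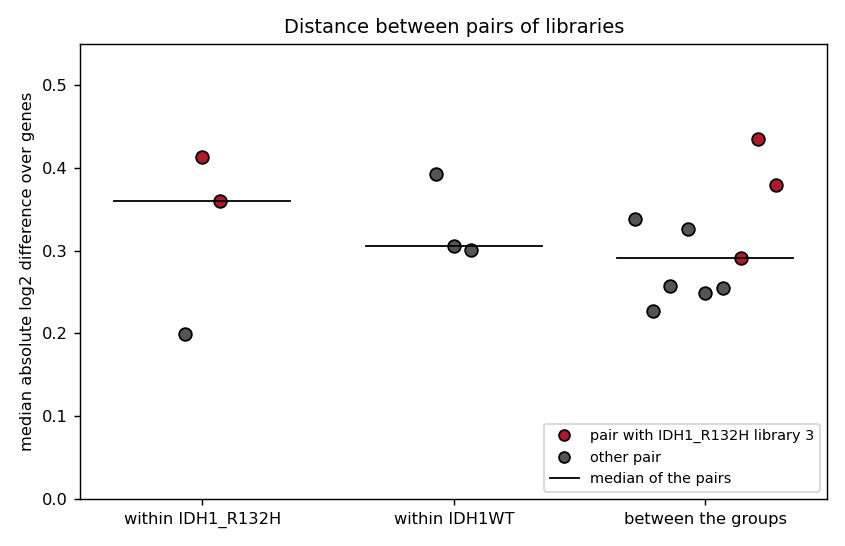
Median absolute log2 difference in expression for each pair of the 6 IDH1 libraries, grouped as pairs within IDH1_R132H, within IDH1WT and between them, each point 1 pair, with red points for pairs that include IDH1_R132H tumour 3. Pairs between the genotypes run from 0.227 to 0.435, a range that overlaps those within IDH1_R132H (0.199 to 0.413) and within IDH1WT (0.301 to 0.393).

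No gene passed the main test, edgeR's quasi-likelihood test with Benjamini-Hochberg adjustment at 0.05: 0 of 16842 genes were called (0%), and the smallest adjusted p was 1. At an unadjusted p under 0.05 it found 412 genes (2.45%), 214 higher (1.27%) and 198 lower (1.18%) in IDH1_R132H. A second count model, DESeq2, called 5 of 16835 genes (0.0297%), and limma voom with library quality weights called 0, with 1569 genes (9.32%) at an unadjusted p under 0.05. The 2 groups were apart, with every library of 1 above every library of the other, for 1124 genes (6.67%). IDH1_R132H was above for 529 (3.14%) and below for 595 (3.53%). How many genes would be apart with no difference between the genotypes was not tested, here or for the gene lists below. Differences were evenly spread about 0: the median was 0.00 on the log2 scale, 50.4% of genes were positive, and the median size was 0.157. Only 267 genes (1.59%) differed by at least 2-fold in the fitted value. The count of 0 depends on the filter on low counts: without it edgeR called 29 of 40953 genes (0.0708%), 20 of which are in the main test.

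The data bound the differences of most genes. The spread between libraries of a group (biological coefficient of variation) was 25.3%, the median SE of a log2 difference was 0.262, and the median 95% interval reached 0.596 to either side, a factor of 1.51. For 11310 genes (67.2%) the whole interval lay within a 2-fold difference either way. For the other genes the interval reached beyond 2-fold on at least 1 side.

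**Figure D2:**
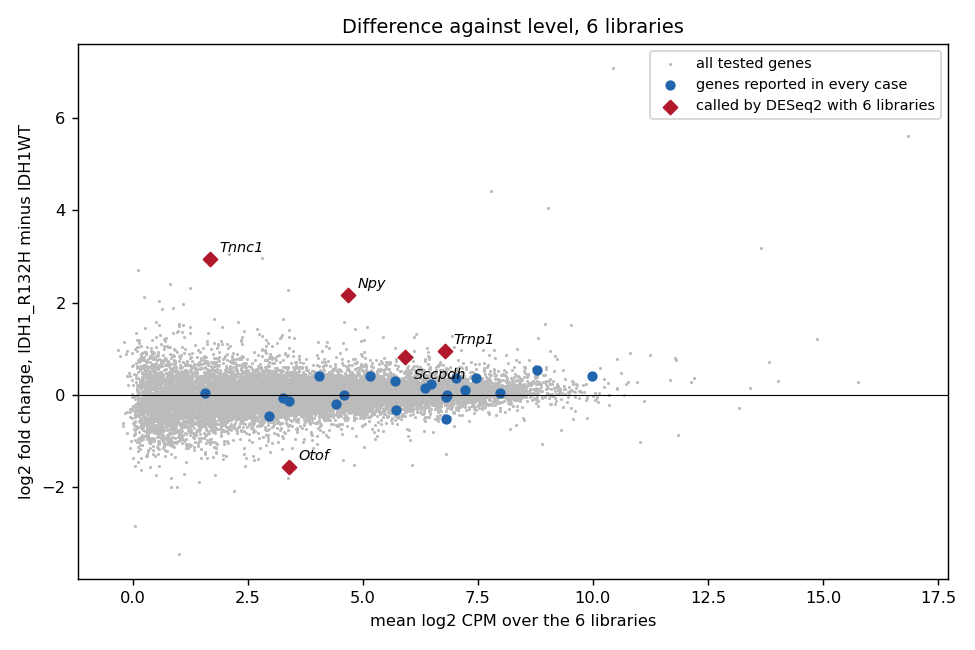
Log2 difference between IDH1_R132H and IDH1WT (vertical axis, positive where IDH1_R132H was higher) against mean log2 CPM over the 6 libraries (horizontal axis) for the 16842 genes tested, each point 1 gene. Diamonds mark the 5 genes called by DESeq2 and blue points the genes reported in every case, such as Idh1 at 0.30; no gene was called by edgeR in the main test. The points at the far right and top include Gm42418 at 5.62.

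The 5 genes called by DESeq2 were Tnnc1, Npy, Sccpdh and Trnp1, higher in IDH1_R132H, and Otof, lower. For all 5 the IDH1_R132H tumours also lay outside each of the 9 other libraries of the series, the PDGFA tumours and normal brains included, as did 138 of the 529 genes with IDH1_R132H apart and above (26.1%) and 166 of the 595 apart and below (27.9%). None passed the main edgeR test. In the edgeR fit without the count filter, where 0.0708% of all genes were called, Npy (adjusted p 5.45e-11), Tnnc1 (4.33e-06) and Otof (0.00162) were called. That fit used the same libraries and is no separate support. With all 12 libraries in the fit DESeq2 called 0 genes, with a smallest adjusted p of 0.0839. Repeated with each of the 6 libraries left out, DESeq2 called Npy in 6 of the 6 fits, Tnnc1 in 4, Otof in 3, and Sccpdh and Trnp1 in 2 each.

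Npy (ENSMUSG00000029819), which encodes neuropeptide Y, a peptide transmitter of inhibitory interneurons, stood at 38.8, 31.6 and 56.9 CPM in IDH1_R132H tumours and at 8.62, 4.04 and 15.3 CPM in IDH1WT tumours. The groups did not overlap, and IDH1WT tumour 3 was the nearest to the IDH1_R132H range. The log2 difference was 2.17 (SE 0.43, 95% interval 1.2 to 3.13) by edgeR and 2.18 with an adjusted p of 0.00302 by DESeq2. PDGFA tumours stood at 20.3, 6.31 and 5.97 CPM and normal brains at 12.3, 12.2 and 20.8 CPM, so it was the IDH1WT tumours 1 and 2 and the PDGFA tumours 2 and 3 that lay under normal brain and the IDH1_R132H tumours that lay above it. The 22 neuronal markers, which are not particular to interneurons, summed to 8053, 8980 and 14370 CPM in IDH1_R132H tumours. In IDH1WT tumours they summed to 12620, 7124 and 10820 CPM, which overlap. The part of neuron content in the Npy difference was not tested.

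Tnnc1 (ENSMUSG00000091898), the troponin C of heart and slow muscle, was scarce everywhere. It stood at 9.09, 4.78 and 2.70 CPM in IDH1_R132H tumours, from counts of 68, 49 and 14, and at 0.713, 0.714 and 0.720 CPM in IDH1WT tumours, from counts of 11, 6 and 8. The groups did not overlap, and the 3 IDH1WT values were nearly equal while the IDH1_R132H values spread widely. The log2 difference was 2.94 (SE 0.50, 95% interval 1.82 to 4.07) by edgeR, with the smallest unadjusted p of all genes, and 2.96 with an adjusted p of 0.00254 by DESeq2.

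Sccpdh (ENSMUSG00000038936), a saccharopine dehydrogenase-like oxidoreductase, was tight within each group at 80.3, 80.0 and 69.6 CPM in IDH1_R132H tumours and 42.7, 41.7 and 45.9 CPM in IDH1WT tumours. The groups did not overlap, and the IDH1WT values lay among those of normal brain, at 30.5, 43.2 and 52.3 CPM. The log2 difference was 0.82 (SE 0.15) by edgeR, and DESeq2 gave an adjusted p of 0.017. Trnp1 (ENSMUSG00000056596), a nuclear protein of neural progenitors, stood at 146, 136 and 149.8 CPM in IDH1_R132H tumours and at 87.7, 58.4 and 78.3 CPM in IDH1WT tumours, again with no overlap. Its log2 difference was 0.95 (SE 0.19) by edgeR, with an adjusted p of 0.0369 by DESeq2.

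Otof (ENSMUSG00000062372) encodes otoferlin, a calcium sensor of vesicle release. It stood at 4.28, 5.07 and 6.17 CPM in IDH1_R132H tumours, at 21.8, 13.3 and 10.4 CPM in IDH1WT tumours, and at 30.2, 27.0 and 20.1 CPM in normal brains. The IDH1_R132H tumours lay below every other library and the groups did not overlap. The log2 difference was -1.57 (SE 0.32, 95% interval -2.30 to -0.84) by edgeR, and the adjusted p by DESeq2 was 0.0499, at the edge of the threshold.

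**Figure D3:**
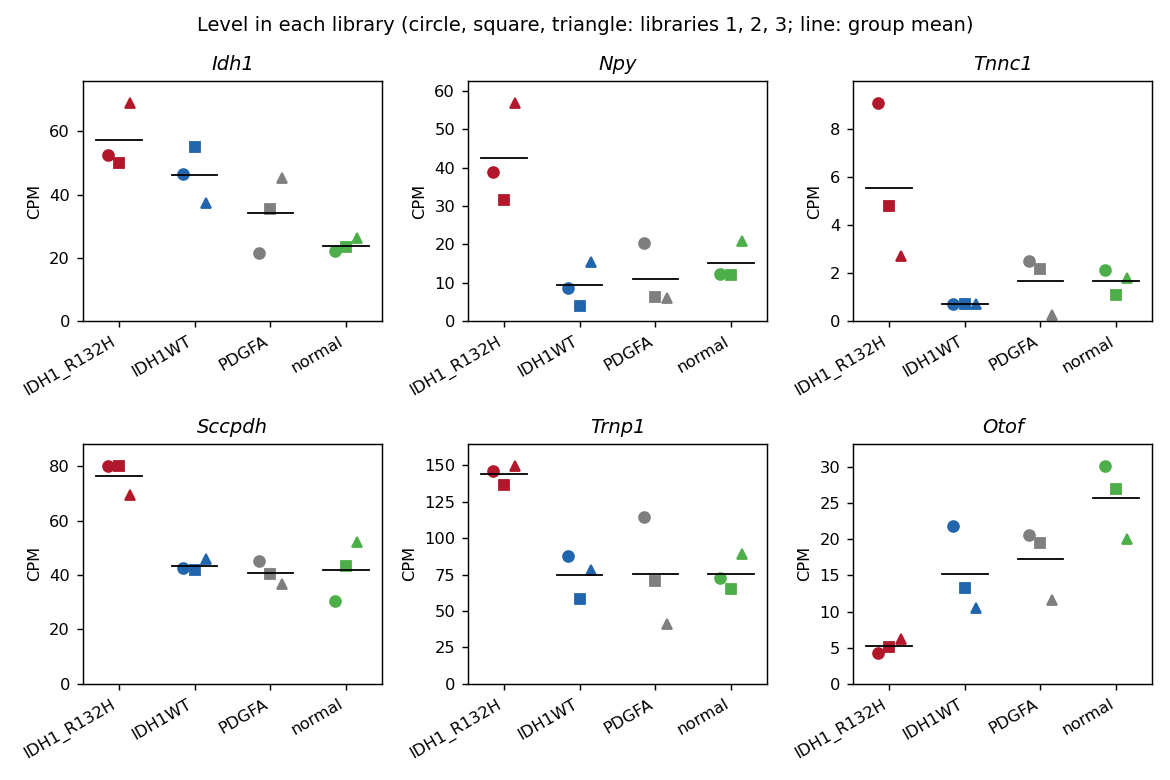
CPM of Idh1 and of the 5 genes called by DESeq2 in each of the 12 libraries, by group, each point 1 library and each line the mean of a group. Idh1 overlaps between IDH1_R132H and IDH1WT, while Npy, Tnnc1, Sccpdh and Trnp1 lie above and Otof below every IDH1WT library.

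Beyond these, the genes with the smallest unadjusted p among those that were well expressed and did not overlap between the groups are given as values, since the main test called none of them. The edgeR fit without the count filter, which called 0.0708% of all genes, called 4 of those named here. These were Vgf (adjusted p 0.00319), Stk32b (0.00596), Pappa (0.0464) and Bmp3 (0.0464). The named genes were picked for a small p in these same libraries, so those calls are no separate support. Several of the higher ones encode secreted ligands and their receptors. Bmp3, an atypical ligand of the bone morphogenetic protein family, stood at 33.7, 29.2 and 34.1 CPM in IDH1_R132H tumours against 17.8, 10.3 and 16.4 CPM in IDH1WT tumours (log2 difference 1.11, SE 0.23). Wnt7b, a Wnt ligand known from vessel growth in the central nervous system, stood at 45.8, 55.5 and 45.9 CPM against 25.4, 35.2 and 27.3 CPM (0.75, SE 0.18). Gfra2, the co-receptor of neurturin, stood at 62.7, 63.0 and 52.6 CPM against 36.0, 40.7 and 33.2 CPM (0.70, SE 0.16). For all 3 the lowest IDH1_R132H tumour lay above the highest IDH1WT tumour and above every PDGFA tumour and normal brain.

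Other secreted or matrix-bound proteins followed. Vgf, a precursor of neuropeptides, stood at 83.7, 101 and 107 CPM against 42.1, 20.5 and 59.7 CPM (log2 difference 1.25, SE 0.33). For Vgf the IDH1WT tumours were also under the 3 normal brains, at 74.7, 64.9 and 77.2 CPM, and PDGFA tumour 1 reached the level of the IDH1_R132H tumours at 107 CPM. Pappa, a protease that cleaves insulin-like growth factor binding proteins, differed by 1.23 (SE 0.30), with 16.2, 21.1 and 9.64 CPM against 6.55, 8.09 and 5.67 CPM. Ltbp1, a binding protein of latent TGF-beta, differed by 0.72 (SE 0.19), with 22.1, 22 and 20.2 CPM against 13.0, 10.8 and 15.1 CPM. Both ranges were apart, and Ltbp1 was tight within the IDH1_R132H group.

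The rest of the higher genes act inside the cell. Eya1, a phosphatase that acts as a transcriptional cofactor, stood at 38.9, 34.5 and 34.3 CPM against 20.0, 24.4 and 18.5 CPM (log2 difference 0.78, SE 0.17). Stk32b, a serine/threonine kinase, stood at 15.9, 17.1 and 12.1 CPM against 4.15, 9.28 and 3.87 CPM (1.41, SE 0.35). Pop4, a subunit of RNase P and RNase MRP, stood at 8.55, 9.95 and 14.5 CPM against 4.86, 5.71 and 5.22 CPM (1.05, SE 0.27). Eya1 and Stk32b were also above all PDGFA tumours and normal brains, whereas Pop4 was as high in the PDGFA tumours, at 13.1, 8.41 and 15.3 CPM. Of the 12 higher genes named by the rule, 10 (83.3%) lay above all 9 other libraries, the exceptions being Pop4 and Vgf. The share was 26.1% among all genes with IDH1_R132H apart and above. The 12 were themselves picked for a small p with groups apart.

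The lower genes included 2 known from cell division. Anln, the anillin of the cleavage furrow, stood at 20.8, 25.4 and 35.7 CPM in IDH1_R132H tumours against 39.5, 43.9 and 52.3 CPM in IDH1WT tumours (log2 difference -0.74, SE 0.23). Spag5, a spindle protein, stood at 8.69, 10.2 and 12.5 CPM against 14.5, 20.5 and 19.8 CPM (-0.80, SE 0.23). Both genes kept the groups apart. Normal brain, where mitosis genes were low, held Anln at 35.3 to 41.5 CPM and Spag5 at 9.57 to 10.4 CPM. Which cells held these transcripts was not tested.

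Pde5a, Apold1 and Ebf1 were also among the lower genes. Pde5a, a phosphodiesterase of cyclic GMP known from smooth muscle, stood at 28.5, 24.2 and 32.0 CPM against 41.7, 39.8 and 43.2 CPM (log2 difference -0.56, SE 0.17). Apold1, an early response gene of endothelium, stood at 12, 10.4 and 14.5 CPM against 19.1, 22.7 and 21.2 CPM (-0.78, SE 0.20). Ebf1, a transcription factor that also marks pericytes, stood at 16.3, 16.1 and 16.6 CPM against 27.4, 27.1 and 24.4 CPM (-0.69, SE 0.16). In each of these the highest IDH1_R132H tumour was below the lowest IDH1WT tumour, and Ebf1 varied little within either group.

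Of the remaining lower genes, Synm (synemin, an intermediate filament protein) differed by -0.54 (SE 0.17) and Neb (nebulin, a thin filament protein of muscle) by -1.18 (SE 0.34). Itpr3, an inositol trisphosphate receptor, stood at 5.35, 4.10 and 5.98 CPM against 14.5, 6.66 and 10.4 CPM (-1.06, SE 0.33). Ndst3, an enzyme that modifies heparan sulfate, differed by -0.64 (SE 0.19), and Fmn1, a formin that nucleates actin, by -0.54 (SE 0.15). Of the lower genes printed here, Otof, Fmn1, Ndst3 and Itpr3 lay below all 9 other libraries. The others overlapped with a PDGFA tumour or a normal brain. Of the 12 lower genes the rule takes, 33.3% lay below all 9, near the 27.9% among all genes with IDH1_R132H apart and below.

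**Figure D4:**
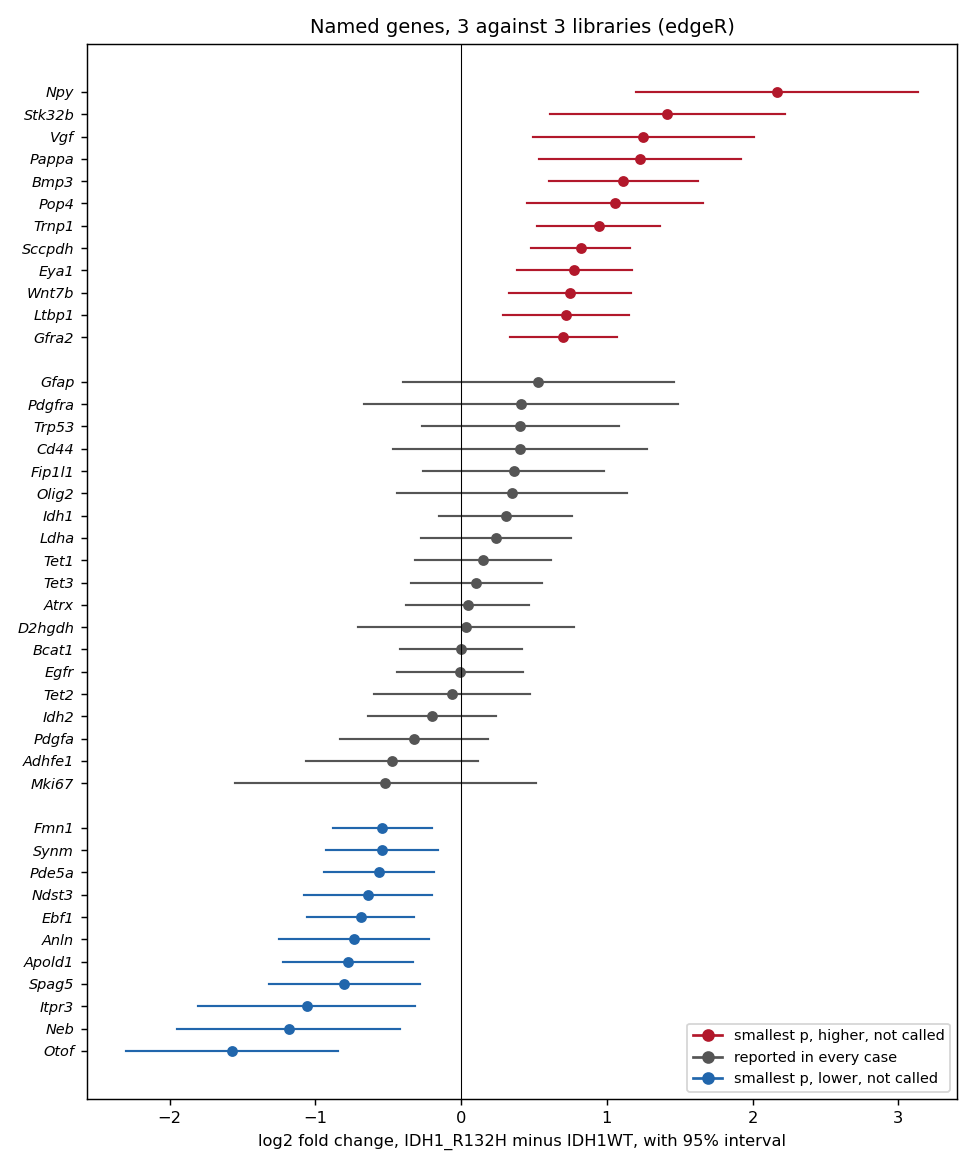
Log2 difference between IDH1_R132H and IDH1WT with its 95% interval for the named genes, positive where IDH1_R132H was higher: 12 genes higher, the genes reported in every case, and 11 genes lower. Intervals of the higher and lower genes leave 0 on 1 side before adjustment, while those of the genes reported in every case, such as Idh1 (-0.15 to 0.76), span 0.

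The enzymes around the mutated one were examined as a group: the isocitrate dehydrogenases, the enzymes that make or clear 2-hydroxyglutarate and the citric acid cycle. All 24 were tested, 0 were called by edgeR, 11 were positive, and the median log2 difference was -0.02 against 0.00 over all genes. For 23 of the 24 the interval excluded a 2-fold difference. Idh2, the mitochondrial counterpart of Idh1, stood at 15.4, 21.2 and 22.6 CPM against 22.3, 21.9 and 23.6 CPM, which overlap (log2 difference -0.20, SE 0.19). D2hgdh, which oxidises D-2-hydroxyglutarate, differed by 0.03 (SE 0.33).

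Adhfe1, a transhydrogenase that can itself form D-2-hydroxyglutarate, was the only member of the 24 whose groups did not overlap. It stood at 4.68, 7.42 and 6.75 CPM in IDH1_R132H tumours and at 9.60, 9.04 and 7.56 CPM in IDH1WT tumours, with a log2 difference of -0.47 (SE 0.26) and an interval from -1.06 to 0.12. Slc25a1, the mitochondrial citrate carrier, had the smallest unadjusted p of the list at 0.0693 by edgeR and a difference of 0.45 (SE 0.22). Its values of 27.4, 32.8 and 42.8 CPM overlapped with 21.9, 30.1 and 23.4 CPM.

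Enzymes that the metabolite acts on were as flat. Among the 34 dioxygenases that need 2-oxoglutarate, which include the TET enzymes and the lysine demethylases, 19 were positive, the median was 0.02, and 31 intervals lay within 2-fold. Tet1, Tet2 and Tet3 differed by 0.15, -0.06 and 0.11. Alkbh3, a demethylase of nucleic acids, was the only one without overlap, at 9.76, 9.66 and 8.10 CPM against 10.6, 12.7 and 11.5 CPM (log2 difference -0.33, SE 0.21). The 18 genes of the DNA methylation machinery had a median of -0.02, with 8 positive and none without overlap.

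Genes of glutamate and branched-chain amino acid metabolism, a supply of 2-oxoglutarate, had a median of 0.02 over 20 members. Gls2, the liver-type glutaminase, stood at 8.29, 7.42 and 8.10 CPM against 12.4, 8.92 and 10.6 CPM (log2 difference -0.43, SE 0.22), with no overlap. Bcat1, the cytosolic branched-chain transaminase that is known as low in human IDH-mutant glioma, differed by 0.00 (SE 0.18). Of 16 tested genes known as lower in such human tumours, 9 were positive, with a median of 0.08 and 0 without overlap. Ldha, lactate dehydrogenase A, differed by 0.24 (SE 0.22). Only 6 of the 16 intervals lay within 2-fold, so this list was measured less closely than the enzymes above. Genes of hypoxia and glycolysis (26 tested), oxidative phosphorylation (25) and NADPH and glutathione supply (23) had medians of 0.01, -0.02 and 0.03.

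Genes of cholesterol and fatty acid synthesis were mostly positive. Of 22 members 19 were positive with a median of 0.16, and 3 (13.6%) did not overlap, all higher. Of all genes, 6.67% were apart in either direction and 3.14% were apart and higher. Elovl6, a fatty acid elongase and 1 of the 3, stood at 101, 91.1 and 86.6 CPM in IDH1_R132H tumours and at 77.7, 81.1 and 76.7 CPM in IDH1WT tumours (log2 difference 0.24, SE 0.15). Each IDH1_R132H tumour lay above each IDH1WT tumour by a small step. Over 15 alternative settings the median ran from 0.08 without IDH1_R132H tumour 3 to 0.28 without IDH1_R132H tumour 1, with 0.24 without IDH1WT tumour 1.

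Growth factor signalling came next. PDGFRA is the receptor of PDGFA and a marker of oligodendrocyte precursors, and the PDGF system with other receptor tyrosine kinases had a median of 0.06 over 23 members, 12 of them positive. Pdgfra stood at 1334, 1499.5 and 629 CPM in IDH1_R132H tumours and at 499, 1502 and 599 CPM in IDH1WT tumours. The high and low levels occurred in both groups: IDH1WT tumour 2 equalled IDH1_R132H tumour 2, and IDH1_R132H tumour 3 was near IDH1WT tumours 1 and 3. The log2 difference was 0.41 (SE 0.47), and the widest interval end, 1.49, leaves room for a difference over 2-fold. It was 1.07 without IDH1WT tumour 2. Fip1l1, the neighbour of Pdgfra and a cleavage and polyadenylation factor, followed the same libraries at 214, 241 and 142 CPM against 116, 208 and 142 CPM. Pdgfa differed by -0.32 (SE 0.22) and Egfr, the epidermal growth factor receptor, by -0.01 (SE 0.19).

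Feedback regulators and outputs of the MAPK cascade were mostly positive. Of 18 tested members 14 were positive and the median was 0.43. By edgeR 3 had an unadjusted p under 0.05, all higher, against 2.45% of all genes in either direction and 1.27% higher. The groups did not overlap for 2 (11.1%, against 6.67% of all genes). Egr1, an immediate early transcription factor, stood at 98.1, 118 and 167 CPM against 85.1, 89.4 and 60.2 CPM (log2 difference 0.71, SE 0.24). Spry2, an inhibitor of receptor tyrosine kinase signalling, stood at 57.6, 63.5 and 76.8 CPM against 37.0, 55.8 and 45.8 CPM (0.51, SE 0.20). Spry1, of the same family, stood at 66.4, 85.8 and 44.4 CPM against 29.6, 58.3 and 31.1 CPM (0.73, SE 0.32). Egr1 and Spry2 kept the groups apart, whereas IDH1WT tumour 2 reached into the IDH1_R132H range for Spry1.

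That library stood out in the list score, a mean over members of log2 CPM centred on 0 for each gene across the 6 libraries. The MAPK score was 0.09, 0.16 and 0.27 in IDH1_R132H tumours and -0.41, 0.28 and -0.38 in IDH1WT tumours, so IDH1WT tumour 2 was the highest of the 6. Without it the median was 0.66 and 12 of the 18 members were apart, in a fit where 19% of all genes were apart and edgeR called 0. The median was 0.27 without IDH1WT tumour 1. DESeq2 without IDH1WT tumour 2 called 41 genes (0.277%), 5 of them members: Ccnd1 (cyclin D1), Spry4, Etv4, Spred3 and Phlda1. Because that library had the highest score, its removal favoured these calls and the members apart. They are no separate support.

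**Figure D5:**
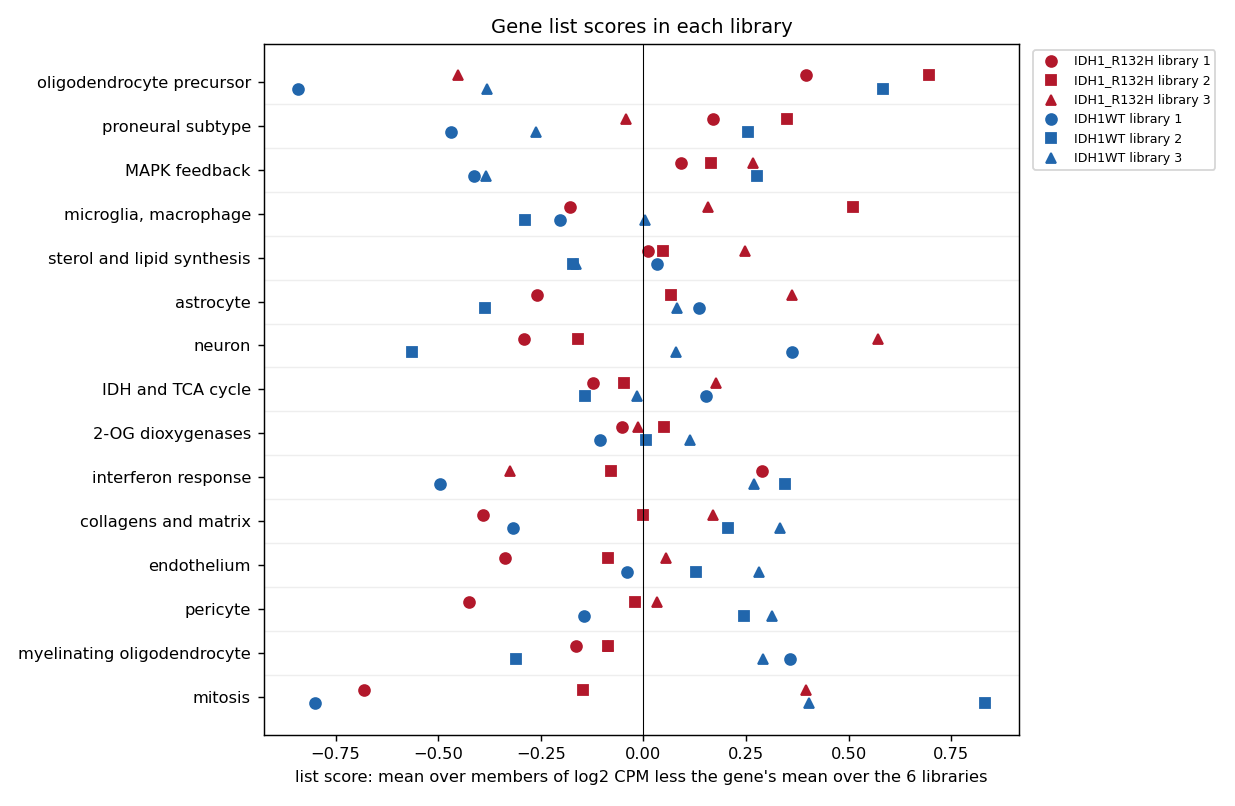
Scores of gene lists (mean over members of log2 CPM less the gene's mean over the 6 libraries) in each IDH1 library, each point 1 library, red for IDH1_R132H and blue for IDH1WT. For oligodendrocyte precursors and MAPK feedback, IDH1WT tumour 2 lies with the higher IDH1_R132H tumours and away from IDH1WT tumours 1 and 3; no list shown has all members apart.

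Oligodendrocyte precursor genes divided the libraries in another way. Of 20 members 19 were positive with a median of 0.40, but 0 were called, 0 had an unadjusted p under 0.05 and 0 kept the groups apart. The score was 0.40, 0.70 and -0.45 in IDH1_R132H tumours and -0.84, 0.58 and -0.38 in IDH1WT tumours. IDH1_R132H tumours 1 and 2 and IDH1WT tumour 2 were high, and the remaining 3 libraries were low. Sox10, a transcription factor of the oligodendrocyte lineage, stood at 129.9, 181 and 158 CPM against 57.4, 174 and 84.5 CPM (log2 difference 0.57, SE 0.37). Tnr, the matrix protein tenascin-R, stood at 1632, 1684 and 792 CPM against 638, 1228 and 871 CPM (0.59, SE 0.36). Olig2, the lineage's defining factor, differed by 0.35 (SE 0.35).

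The size of this difference rests on single libraries. The list median was 0.91 with 10 of 20 members apart (19% of all genes) without IDH1WT tumour 2, 0.15 without IDH1WT tumour 1, 0.19 without IDH1_R132H tumour 2 and 0.70 without IDH1_R132H tumour 3; it was positive in all 15 alternative settings. DESeq2 without IDH1WT tumour 2 called Olig1, Sox10 and Dll3 among the members, in a fit where 0.277% of all genes were called. That library had the highest score of the IDH1WT tumours, so its removal favoured these calls and the members apart. They are no separate support.

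Glioma subtype lists, written from general knowledge of the human subtypes, were read in the same way. The proneural list, which shares Sox10 and others with the precursor list, had 21 of 24 members positive, a median of 0.33 and 0 apart. The median was 0.71 without IDH1WT tumour 2, 0.14 without IDH1WT tumour 1 and 0.18 without IDH1_R132H tumour 2. Its score was 0.17, 0.35 and -0.04 against -0.47, 0.26 and -0.26, with IDH1WT tumour 2 again among the IDH1_R132H values. The classical, mesenchymal and neural lists had medians of 0.03 (22 tested), -0.03 (26) and -0.06 (16). Sema6a, a transmembrane semaphorin of the classical list, stood at 133, 129 and 121 CPM against 81.0, 113 and 83.9 CPM (log2 difference 0.47, SE 0.18), and Thbs1, thrombospondin 1 of the mesenchymal list, at 5.21, 6.54 and 9.45 CPM against 9.92, 10.6 and 11.6 CPM (-0.61, SE 0.26). Both kept the groups apart and neither was called. Gfap and Cd44, markers used for astrocytic and mesenchymal tumours, differed by 0.53 (SE 0.41) and 0.40 (SE 0.38).

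Mitosis genes were mostly negative. Of 24 members 1 was positive and the median was -0.38, but again 0 were called and 0 kept the groups apart. Mki67, which encodes the Ki-67 antigen of cycling cells, stood at 55.9, 91.1 and 128 CPM in IDH1_R132H tumours and at 50.6, 178 and 166 CPM in IDH1WT tumours (log2 difference -0.52, SE 0.45). IDH1WT tumour 1 was the lowest of the 6 and the other 2 IDH1WT tumours were the highest, so the groups overlapped through 1 library. Without IDH1WT tumour 1 the median was -0.74 and 12 of 24 members were apart (17.4% of all genes). Without IDH1WT tumour 2 it was 0.04, with 16 positive, and it was -0.18 without IDH1_R132H tumour 1 and -0.63 without IDH1_R132H tumour 3. With IDH1_R132H tumour 3 and IDH1WT tumour 1 left out together, a choice made with the values in view, 23 of the 24 were apart with a median of -1; 31.3% of all genes were apart in that fit, and edgeR called 0. Those libraries held the values that made the groups overlap. DNA replication genes had a median of -0.05 over 24 members, and the p53 network 0.00 over 23, with Trp53 at 0.41 (SE 0.30).

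Markers of the cells around and within the tumours were followed one type at a time. Microglia and macrophage markers had 18 of 22 positive, a median of 0.41 and 3 (13.6%) apart, against 6.67% of all genes. All 3 were higher, and 3.14% of all genes were apart and higher. In the edgeR fit without the count filter 1 of the 22 was apart, against 4.5% of all genes. Trem2, a lipid receptor of microglia, stood at 7.75, 16.6 and 8.68 CPM against 7.39, 4.28 and 6.93 CPM (log2 difference 0.83, SE 0.35). Fcrls, a microglial Fc receptor-like gene, stood at 5.88, 17.2 and 4.44 CPM against 3.50, 4.04 and 3.78 CPM (1.31, SE 0.48). Both groups were apart, with IDH1_R132H tumour 2 well above its own group. Without that tumour the list median was 0.22, and without IDH1WT tumour 2 it was 0.26. The summed level of the 22 markers was 296.8, 527.8 and 496.6 CPM against 353.8, 263.6 and 380.2 CPM, which overlap. T and NK cell markers were near the limit of detection: 3 of 16 could be tested, summing to 3.631 to 7.731 CPM.

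Vessel genes were mostly negative. Endothelial markers had 2 of 20 positive and a median of -0.27, pericyte and smooth muscle markers 2 of 13 and -0.24, and collagens with basement membrane 6 of 24 and -0.21. Angpt2, a ligand of vessel remodelling, stood at 11.1, 10.1 and 16.6 CPM against 12.3, 25.9 and 27.6 CPM (log2 difference -0.81, SE 0.33). Col18a1, the collagen that holds endostatin, stood at 30.1, 30.7 and 27.8 CPM against 26.3, 66.1 and 59.6 CPM (-0.77, SE 0.31). In both, IDH1WT tumours 2 and 3 were high and IDH1WT tumour 1 was with the IDH1_R132H tumours. Kcnj8, a potassium channel of pericytes, differed by -1.03 (SE 0.41) on 2.14, 4.59 and 4.63 CPM against 4.47, 9.16 and 9.63 CPM. Lama2, a laminin chain, was apart at 21.1, 23.3 and 26.2 CPM against 30.7, 30.7 and 30.6 CPM (-0.38, SE 0.16), as was Esam, an endothelial adhesion molecule, at 14.2, 14.7 and 13.1 CPM against 15.8, 18.4 and 19.0 CPM (-0.34, SE 0.18). The endothelial median stayed between -0.35 and -0.17 and the pericyte median between -0.47 and -0.14 over the same settings, the pericyte extreme without IDH1_R132H tumour 3. The matrix median ran from -0.41 without IDH1WT tumour 1 to -0.06 without IDH1WT tumour 3, with -0.10 without IDH1_R132H tumour 1 and -0.13 without IDH1WT tumour 2. The part of vessel content in the lower levels of Apold1, Pde5a and Ebf1 was not tested.

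Myelinating oligodendrocyte markers had 3 of 19 positive and a median of -0.27, with summed levels of 2844, 3188 and 3361 CPM against 4339, 2783 and 4107 CPM. IDH1WT tumour 2 was the lowest of the 6, so the groups overlapped. The median was -0.43 without that tumour, -0.15 without IDH1WT tumour 1 and -0.16 without IDH1WT tumour 3. Astrocyte and neuron markers were about evenly divided, with medians of 0.02 (10 of 20 positive) and 0.01 (12 of 22). Slc17a7, the vesicular glutamate transporter of excitatory neurons, stood at 499, 631 and 992 CPM against 515, 205 and 380.1 CPM (log2 difference 0.95, SE 0.38), and Snhg11, a long noncoding RNA of neurons, at 649, 583 and 624 CPM against 1037, 580.4 and 1067 CPM (-0.53, SE 0.27). These 2 neuronal genes thus differed in opposite directions.

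Npy and Vgf are among the genes that neuronal activity is known to induce, so immediate early genes were read beside them. Of 20 immediate early genes 13 were positive, with a median of 0.18, and 5 (25%, against 6.67% of all genes) were apart, 3 higher and 2 lower. That count depends on the setting. In the edgeR fit without the count filter 1 of the 20 was apart, against 4.5% of all genes. The median was 0.03 without IDH1_R132H tumour 2 and 0.02 without IDH1WT tumour 2, each with 10 of 20 positive, and 0.29 without IDH1_R132H tumour 1. Jun stood at 55.1, 58.2 and 53.6 CPM against 43.1, 44.8 and 50.5 CPM, while Dusp1, a phosphatase that shuts off MAP kinases, stood at 13.8, 13.2 and 12 CPM against 32.3, 14.6 and 14.5 CPM. Members of the list thus differed both ways. Bdnf, chosen with its values in view, a neurotrophin induced by activity, stood at 51.5, 70.8 and 26.4 CPM against 12.3, 10.1 and 32.0 CPM (log2 difference 1.46, SE 0.48). IDH1WT tumour 3 exceeded IDH1_R132H tumour 3 there. Nptx2, a pentraxin of excitatory synapses, was likewise split within the groups at 77.8, 184 and 40.3 CPM against 16.3, 12.5 and 92.2 CPM. DESeq2 without IDH1WT tumour 3 called 12 genes (0.0682%), Npy, Vgf, Bdnf and Nptx2 among them. That library was the highest IDH1WT tumour for each of these genes, so its removal favoured the calls. They are no separate support.

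Immune signalling was without a shared direction. Interferon response genes had a median of -0.04 over 21 members with 3 (14.3%) apart, against 6.67% of all genes. All 3 were lower, and 3.53% of all genes were apart and lower. Xaf1, an interferon-induced gene of cell death, stood at 2.27, 1.56 and 1.35 CPM against 2.53, 3.09 and 4.41 CPM, and Stat2, a transducer of interferon receptors, at 15.8, 14.7 and 12.7 CPM against 17.8, 18.3 and 24.1 CPM (log2 difference -0.47, SE 0.20). Antigen presentation genes had 15 of 18 positive with a median of 0.18 and 0 apart. Their direction rests on 1 library: without IDH1_R132H tumour 1 the median was -0.03 with 8 of 18 positive. It was 0.06 without IDH1WT tumour 1, 0.28 without IDH1_R132H tumour 3 and 0.45 without IDH1WT tumour 2. Complement and cytokine genes had a median of -0.06 over 15.

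Developmental pathways had members at both ends. In the Notch pathway Dll4, a ligand of tip cells in vessels, was apart and lower at 5.48, 6.05 and 4.44 CPM against 6.81, 10.7 and 9.99 CPM (log2 difference -0.76, SE 0.27). The Notch targets Hes5 and Nrarp differed by 1.02 (SE 0.40) and 0.89 (SE 0.35), with IDH1_R132H tumours 1 and 2 high and IDH1_R132H tumour 3 within the IDH1WT range. The median of the 18 members was 0.11, and 0.22 by limma voom. With 1 library left out of the edgeR fit it ran from 0.01 without IDH1_R132H tumour 2 to 0.20 without IDH1WT tumour 2. It was 0.04 without IDH1WT tumour 1 and 0.18 without IDH1_R132H tumour 3. Among 24 Wnt and Hedgehog genes the median was -0.02, with Wnt7b and Smo apart and higher and Hhip, an antagonist that binds Hedgehog, apart and lower at 7.88, 12.2 and 8.68 CPM against 14.3, 13.6 and 14.2 CPM.

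A few genes outside the rule for named genes were picked with their values in view, for the size of their difference. Mmp15, a membrane-bound matrix metalloproteinase, stood at 333, 274 and 307 CPM against 124, 233 and 111 CPM (log2 difference 0.97, SE 0.29). Ednrb, the endothelin B receptor, stood at 431, 237 and 127 CPM against 122, 130.5 and 101 CPM (1.17, SE 0.38). Meox1, a homeobox factor, stood at 49.6, 51.9 and 33.7 CPM against 14.8, 33.9 and 11.5 CPM, and was under 1 CPM in all 3 normal brains. Mmp15 kept the groups apart, while for Ednrb and Meox1 IDH1_R132H tumour 3 lay just under IDH1WT tumour 2. Gal, the neuropeptide galanin, was apart at 3.74, 1.95 and 4.44 CPM against 0.713, 0.595 and 1.17 CPM (1.98, SE 0.47). Neat1, a long noncoding RNA of nuclear paraspeckles, stood at 280.2, 340.1 and 298 CPM against 289.8, 915 and 712 CPM (-1.06, SE 0.38), with IDH1WT tumour 1 among the IDH1_R132H tumours. Npw, neuropeptide W, had counts of 24, 19 and 8 against 0, 0 and 2, too few for the main test.

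Across the 37 lists, which hold 721 genes of which 680 were tested, the main test called 0 members. The lists with the largest median differences were those of MAPK feedback, microglia, oligodendrocyte precursors and proneural genes on the higher side and of mitosis genes on the lower. Their medians ran from -0.38 to 0.43, while over all genes the median was 0.00 and 6.67% of genes were apart.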

How the data were processed

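RNA from formalin-fixed, paraffin-embedded tissue was extracted, per the labels' protocols, with the RecoverAll kit. The authors deposited raw read counts per gene for 49671 genes, made with STAR 2.5.2b, Subread and featureCounts 1.5.1 on GRCm38, per the submitters' processing notes, which also name DESeq2 1.16.1. With settings for annotation, strand and multi-mapping not given in the sources used here, reads of overlapping, antisense and near-identical genes cannot be told apart. A deposited table of regularised log2 values for 23792 genes served as an alternative. Symbols and coordinates came from GENCODE M21 (GRCm38), which named 49412 genes. Columns were matched to samples by name, and libraries are numbered in record order, which pairs nothing.

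Counts of the 6 libraries were analysed in R 4.3.3 with edgeR 4.0.16 (filterByExpr with minimum count 10 and total 15, TMM factors, robust quasi-likelihood test, 4 residual degrees of freedom). A gene was called where its p, adjusted by Benjamini-Hochberg, was under 0.05. CPM of the other libraries were put on the same scale. List scores used log2 CPM with a prior count of 2. Groups are called apart where the ranges of their CPM do not overlap. TMM scaling hides any shift common to most genes. The fit was also tested on simulated counts.

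Named genes are a list of genes given in every case, the genes called, filled to 12 in each direction with those of smallest unadjusted p with groups apart, mean log2 CPM not under 3 and an approved-style symbol, and the 4 members of each list with the smallest p, of which those the text needs are printed. A few genes the rule takes are not reported here. The comparison, the gene lists and the named genes were chosen with earlier results of these data known. Alternatives were other groups in the fit, RLE factors, DESeq2 1.42.0, limma 3.58.1 (voom with quality weights, and the deposited log2 values), 2 other count filters, removal of ribosomal-RNA-like loci, and each library left out. DESeq2 with a library left out or all 12 in the fit, and the removal of IDH1_R132H tumour 3 with IDH1WT tumour 1, were chosen after seeing the data.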

Additional observations from a re-analysis of the deposited data

How the results depend on the processing

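Every alternative edgeR and limma fit called 0 genes except edgeR without a filter on low counts, which called 29 (23 higher). Of these 20 are in the main test, among them Npy, Tnnc1, Otof, Vgf, Stk32b, Pappa, Bmp3, Bdnf, Meox1 and Ednrb, and 9 are not; the cause was not tested. The smallest adjusted p among the edgeR fits that left out 1 library was 0.0648, without IDH1_R132H tumour 3. DESeq2 called 5 genes, and 3 to 41 with 1 library left out (0 with 12 libraries): 3 without IDH1_R132H tumour 2, 11 without IDH1_R132H tumour 1 or IDH1WT tumour 1, 12 without IDH1WT tumour 3, 16 without IDH1_R132H tumour 3 and 41 without IDH1WT tumour 2. Of 78 genes called in any of those 6 fits, 70 were called in 1 fit and 1, Npy, in all. Genes with groups apart numbered 1842 without the filter, where 40953 genes were tested, 1855 to 3267 with 1 library left out (2946, 1855 and 3160 without IDH1_R132H tumours 1 to 3, 3066, 3267 and 2202 without IDH1WT tumours 1 to 3, also in the DESeq2 fits), and 5359 without IDH1_R132H tumour 3 and IDH1WT tumour 1, as fewer values make overlap rarer. The 12 higher and 11 lower named genes kept their sign in all 15 settings. They were picked for groups apart in these same libraries, which largely fixed the sign in advance, so this is no separate support. Of the log2 differences recomputed, 2550 were counted as the same, 57 moved and 10 passed the threshold of adjusted p. For genes with an unadjusted p under 0.05 in the main edgeR test, the same meant only the same sign. For the other genes it meant within 1 SE of the main value. Of the list medians, 540 stayed within 1 spread of the list score and 14 moved. No paired analysis was possible because the labels give no replicate numbers or pairing. Depth limits low genes: Cdkn2a and most T cell markers could not be tested.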
